A study of Mus musculus with 2 samples.

Results

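The Ms4a membrane protein cluster is a run of related genes on mouse chromosome 19, and 7 of them are described here: Ms4a4a, Ms4a4c, Ms4a6b, Ms4a6c, Ms4a6d, Ms4a7 and Ms4a8a. They are a named list, chosen by their junction reads in the IL-10 and untreated libraries, out of 10542 genes that had at least 1 intron of their own with reads. The current mouse annotation holds 19 Ms4a genes in all. Male C57BL/6JJcl mice were injected with thioglycolate, an irritant broth, and 3 days later their peritoneal macrophages were collected and left to adhere for 24 h. One group received interleukin 10 (IL-10), a cytokine that acts on macrophages through Stat3, at 100 ng/ml for 4 h, and the other was untreated. Each group is 1 library, so no difference below has a replicate check and no p-value is given. The measured value is the number of sequencing reads that cross a splice junction, and an intron's reads are those of the junction with its exact length at the gene's place.

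Ms4a proteins cross the membrane several times and sit at the cell surface or in endosomes, often beside immune receptors. Ms4a1 encodes the B cell antigen that rituximab binds, and Ms4a2 encodes the beta chain of the IgE receptor of mast cells. Ms4a4a, Ms4a6 and Ms4a7 genes are known from macrophages and microglia. Human MS4A4A is known to associate with the beta-glucan receptor Dectin-1, which Clec7a encodes, and Ms4a8a has been described in alternatively activated macrophages.

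The Ms4a6 genes are near copies of each other, which bears on their read counts. Over their coding sequences, aligned in pairs, Ms4a6b and Ms4a6c were 85.0% identical, Ms4a6b and Ms4a6d 80.6%, and Ms4a6c and Ms4a6d 77.0%. Ms4a4a and Ms4a4c were 65.7% identical, and the other pairs lay between 50.1% and 60.0%. Parts of the spliced transcripts are closer still. The following windows show the 25 bases on each side of the exon join at intron 2 of Ms4a6d, intron 3 of Ms4a6b and intron 2 of Ms4a6c, from the coding sequence of the GENCODE M21 transcripts, 5′ to 3′, with capitals where the 3 genes are not all the same. They are shown because the windows of Ms4a6d and Ms4a6b have the same 50 bases, and Ms4a6c differs from them at 2.
Ms4a6d intron 2: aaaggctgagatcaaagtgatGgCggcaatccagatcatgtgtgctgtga
Ms4a6b intron 3: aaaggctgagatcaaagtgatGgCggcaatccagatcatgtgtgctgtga
Ms4a6c intron 2: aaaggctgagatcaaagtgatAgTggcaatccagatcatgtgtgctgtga
Introns 5 of Ms4a6d and Ms4a6c and intron 6 of Ms4a6b lie further along the same genes, and at their joins 34 of the 50 positions were the same in all 3 genes.
Ms4a6d intron 5: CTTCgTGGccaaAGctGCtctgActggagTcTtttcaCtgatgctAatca
Ms4a6b intron 6: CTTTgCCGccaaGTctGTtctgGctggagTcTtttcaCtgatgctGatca
Ms4a6c intron 5: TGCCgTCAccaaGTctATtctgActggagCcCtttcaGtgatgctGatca
Reads that fit 2 copies equally well can be split between them, given to 1 of them or dropped by an aligner. How the deposited counts treat such reads is not given in the sources used here. The split of reads among Ms4a6b, Ms4a6c and Ms4a6d is therefore uncertain. So is the split between Ms4a4c and the genes closest to it at its joins, Ms4a4b, Ms4a4d and Gm8369.

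The IL-10 library held 3998954 junction reads, of which 96.0% lay on introns named to 1 gene, and the untreated library 4035991, of which 95.9% did. Of 8 macrophage markers 7 were measured, meaning that they had at least 20 reads over both libraries. They summed to 15569 RPM with IL-10 and 19815 RPM without (RPM, reads scaled to 1000000 named reads in the library). Most read among them was Lyz2, with 31849 and 45047 reads (0.712). The list was mixed, with 2 intervals above 1 and 4 below. The monocyte list had 1 of 4 markers measured and summed to 21.1 RPM with IL-10 and 10.1 RPM without. Its measured marker, the chemokine receptor gene Ccr2, was called higher, at 65 reads against 25 (2.62, 1.63 to 4.34). Of 5 eosinophil markers only Siglecf was measured (86 and 48 reads, 1.81, 1.254 to 2.63), and Epx, Prg2, Il5ra and Ccr3 had no matched read. Matching a marker takes reads on at least 2 of its introns, so a marker without a matched read can still have been read. The neutrophil list, 1 of 9 measured, summed to 81.0 RPM and 69.0 RPM, all of it from Csf3r (311 and 267 reads). For the B cell list, 2 of 7 measured, the sums were 127 RPM and 141 RPM. Most of these came from Cd22 (450 and 497 of 489 and 545 reads), and Cd79a and Pax5 had no matched read. Of 7 markers of resident peritoneal macrophages 6 were measured (66.7 RPM and 60.5 RPM in sum), 1 with an interval above 1 and 0 below. That 1 was Selp, called higher with 29 and 6 reads (4.87, 1.99 to 14.3). Ltbp1 went the other way (28 and 45 reads, 0.627, 0.377 to 1.03), while F5 (22 and 14, 1.58) and Timd4 (16 and 12, 1.34) lay above 1. Fibroblast and mesothelial markers had 5 of 8 measured, 2 with an interval above 1 and 1 below (231 RPM and 212 RPM), and of 6 dendritic cell markers only Itgax was measured, with 7270 and 6711 reads. T and NK cell markers had 0 of 7 measured and mast cell markers 1 of 8. Whether cells other than macrophages contributed to any Ms4a value was not tested, and a change in the number of such cells cannot be told apart from a change in RNA per cell.

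Ms4a6d was the most read gene of the cluster over both libraries. It had 1264 reads with IL-10 and 622 in the untreated library, a ratio of 2.05 with a 95% interval of 1.86 to 2.26. Each ratio here is the gene's share of the reads named to 1 gene in the IL-10 library over that in the untreated library. Its interval is the exact conditional binomial (Clopper-Pearson) one, which covers counting error only and takes reads as independent. A read that crosses 2 joins of a gene is counted at each, so the interval can be too narrow. Ms4a4a gave nearly the same ratio on far fewer reads, 49 with IL-10 and 24 without (2.06, 1.24 to 3.51). These 2 genes were called higher, a call that asks for at least 20 reads, a ratio of at least 2 and an interval above 1. No Ms4a gene was called lower. Over all 8367 genes with at least 20 reads, 1.74% were called higher and 1.49% lower, and since the genes were listed with these ratios known, the count is a description only. With a minimum of 100 reads Ms4a6d alone was called, where 0.628% of 5889 genes were. The ratios of both genes lie close to the threshold of 2.

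Ms4a6c, with the nearest ratio outside that threshold, had 221 reads with IL-10 and 160 untreated (1.39, 1.13 to 1.72). Ms4a6b had 39 and 31 reads (1.27, 0.771 to 2.10), and Ms4a8a had 141 and 122 (1.16, 0.907 to 1.496). Both of these intervals include 1. Ms4a7 was read as often in both libraries, with 759 reads with IL-10 and 758 without, a ratio of 1.01 with an interval of 0.911 to 1.12. Ms4a4c had 5 reads with IL-10 and 7 without, under the minimum of 20, and its interval of 0.180 to 2.63 sets no direction. In all, 3 of the 6 measured genes had an interval above 1 and 0 had one below, where 12.8% and 13.1% of all measured genes did.

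**Figure D1:**
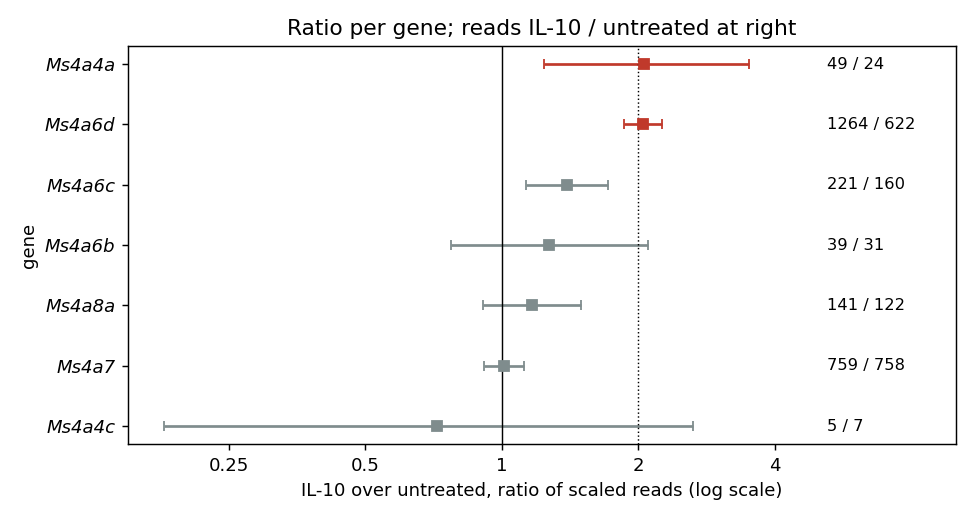
Ratio of scaled reads, IL-10 over untreated, for each Ms4a gene on a log axis, with 95% counting intervals as bars, the 2-fold threshold as a dotted line and the reads of the IL-10 and untreated library at right. The 2 genes called higher are in red, with Ms4a6d on the narrow interval from 1.86 to 2.26 and Ms4a4a on the wide one from 1.24 to 3.51.

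The cluster as a sum followed Ms4a6d. All 7 genes together had 2478 reads with IL-10 and 1724 untreated (1.45, 1.36 to 1.54), and the 6 other than Ms4a6d had 1214 and 1102 (1.11, 1.02 to 1.21). Ms4a6d made up 51.0% of the cluster's reads with IL-10 and 36.1% without. The median log2 ratio of the 6 measured genes was 0.41, beside -0.0013 over all measured genes. By subgroup, the 3 Ms4a6 genes summed to 1524 and 813 reads (1.89, 1.73 to 2.06), and Ms4a6b with Ms4a6c to 260 and 191 (1.37, 1.13 to 1.66). Ms4a7 and Ms4a8a summed to 900 and 880 reads (1.03, 0.938 to 1.13).

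Levels can be set beside each other per intron of the reference transcript that had reads, in RPM, which gives each junction the same weight. On this scale Ms4a6d stood at 54.9 with IL-10 and 26.8 without, and Ms4a7 at 32.5 in both libraries. By this count of introns Ms4a7 was above Ms4a6d in the untreated library, where the exact Poisson intervals were 30.2 to 34.9 and 24.7 to 29.0. With IL-10 it was below, at 30.2 to 34.9 and 51.9 to 58.0. The level of Ms4a6d averages over its intron 5, which had 3 reads with IL-10 and 0 without. Its untreated order beside Ms4a7 therefore depends on which introns are counted, and the intervals leave out the spread between introns. When the 2 alternative junctions of Ms4a7, with 10 and 1 reads with IL-10 and 4 and 0 without, were counted as introns of their own, its levels were 24.7 and 24.5, and the untreated interval of 22.8 to 26.3 overlapped that of Ms4a6d. Ms4a6c at 9.59 and Ms4a8a at 6.12 likewise had separate intervals with IL-10, while their untreated levels of 6.89 and 5.26 overlapped in theirs. Ms4a4a (2.13 with IL-10, 1.03 without) and Ms4a6b (1.69 and 1.34) were not apart in either library, and Ms4a4c was lowest at 0.260 and 0.362. Among all measured genes, by the mean of both libraries over all matched junctions, Ms4a6d ranked at the 96.0th percentile of reads per intron, Ms4a7 at the 93.0th and Ms4a6b at the 28.9th.

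**Figure D2:**
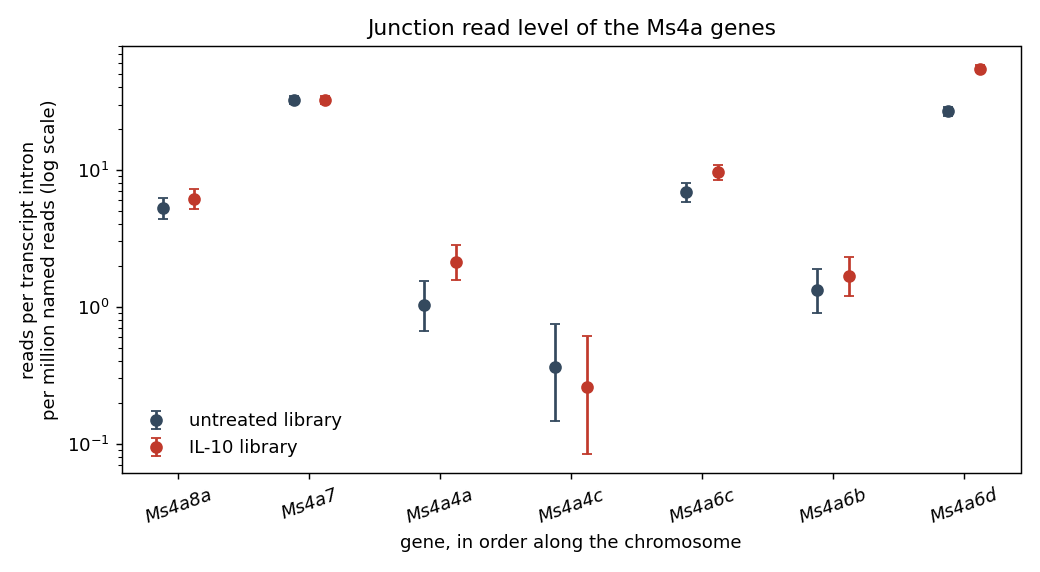
Level per transcript intron with reads, in RPM (log axis), for the 7 genes in order along the chromosome, in the untreated and the IL-10 library, with exact Poisson 95% intervals. The levels run from 0.260 for Ms4a4c to 54.9 for Ms4a6d in the IL-10 library, and both Ms4a7 points lie at 32.5.

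Along Ms4a6d the ratios of the introns ran from 1.31 to 2.70. The gene lies on the minus strand, and its 6 introns span mm9 chr19:11661672-11679163. The first intron, counted from the 5′ end, had 565 reads with IL-10 and 274 without (2.08), the second 74 and 35 (2.13), the third 56 and 43 (1.31), the fourth 515 and 251 (2.07) and the sixth 51 and 19 (2.70). Intervals of introns 1, 2, 4 and 6 lay above 1, and that of intron 3 included it. Against the other introns of the gene, intron 3 stood at 0.624 (0.415 to 0.939), less than 2-fold apart. With introns 1 and 4 left out, a setting chosen after the values were seen, the gene had a ratio of 1.91 (1.49 to 2.47), under the threshold of 2 with the interval still above 1.

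The reads of Ms4a6d were spread unevenly over those introns. Introns 1 and 4 carried 85.1% of them, whereas intron 5, which follows directly on an exon of 207 bases, had 3 reads with IL-10 and 0 without, a count from which no fold is given. The median intron of Ms4a6d held 0.124 times the reads of its top intron, which put the gene at the 13.5th percentile of 2440 genes with 5 introns and 100 reads on one of them. A junction that leaves out this exon, mm9 chr19:11662556-11667354, had 2 reads with IL-10 and 0 without. The same place in the other Ms4a6 genes was thinly read too. In Ms4a6c it had 6 and 14 reads, the fewest of its 6 introns, and in Ms4a6b 2 and 3. In Ms4a7, the intron after an exon of the same length had 71 and 57 reads, more than intron 6 with 57 and 44. The cause was not tested. The join at intron 5 of Ms4a6d is printed above, and it has 54 of 80 bases in common with the closest other gene. Introns 1, 2, 3, 4 and 6 have 76, 78, 70, 57 and 59. The most read introns, 1 and 4, lie at 76 and 57 of these. Whether likeness at a join bears on its reads was not tested.

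Ms4a6c differed along its length. This gene runs on the plus strand over mm9 chr19:11544047-11555695. Its first intron had 96 reads with IL-10 and 48 without, a ratio of 2.01 (1.41 to 2.91), close to that of Ms4a6d. From there the ratios went to 1.42 at intron 2 (41 and 29 reads), 1.79 at intron 3 (16 and 9), 1.26 at intron 4 (40 and 32), 0.432 at intron 5 (6 and 14) and 0.792 at intron 6 (22 and 28). All introns after the first summed to 125 and 112 reads (1.12, 0.864 to 1.46), so without the first intron the gene's interval includes 1. The log2 ratio of the first intron exceeded that of the last by 1.33. Over 1999 genes with at least 20 reads on both, the median of this difference was 0.03 with an SD of 0.74, and 3.40% of the genes had a difference at least that large.

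Ms4a6b gave a similar picture on few reads. Its intron 2, the one that corresponds to the first intron of Ms4a6c and has 76 of 80 bases at the join in common with Ms4a6d, was at 20 reads with IL-10 against 7 (2.88, 1.17 to 8.06). Its other introns together had 19 and 24 (0.798, 0.413 to 1.52). Intron 3, whose 50-base window is the same in Ms4a6d, had 0 reads with IL-10 and 3 without, while the Ms4a6d intron had 74 and 35. For Ms4a6b and Ms4a6c summed, the first intron with reads had 116 and 55 (2.12, 1.53 to 2.98), the later ones 144 and 136 (1.07, 0.838 to 1.36).

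**Figure D3:**
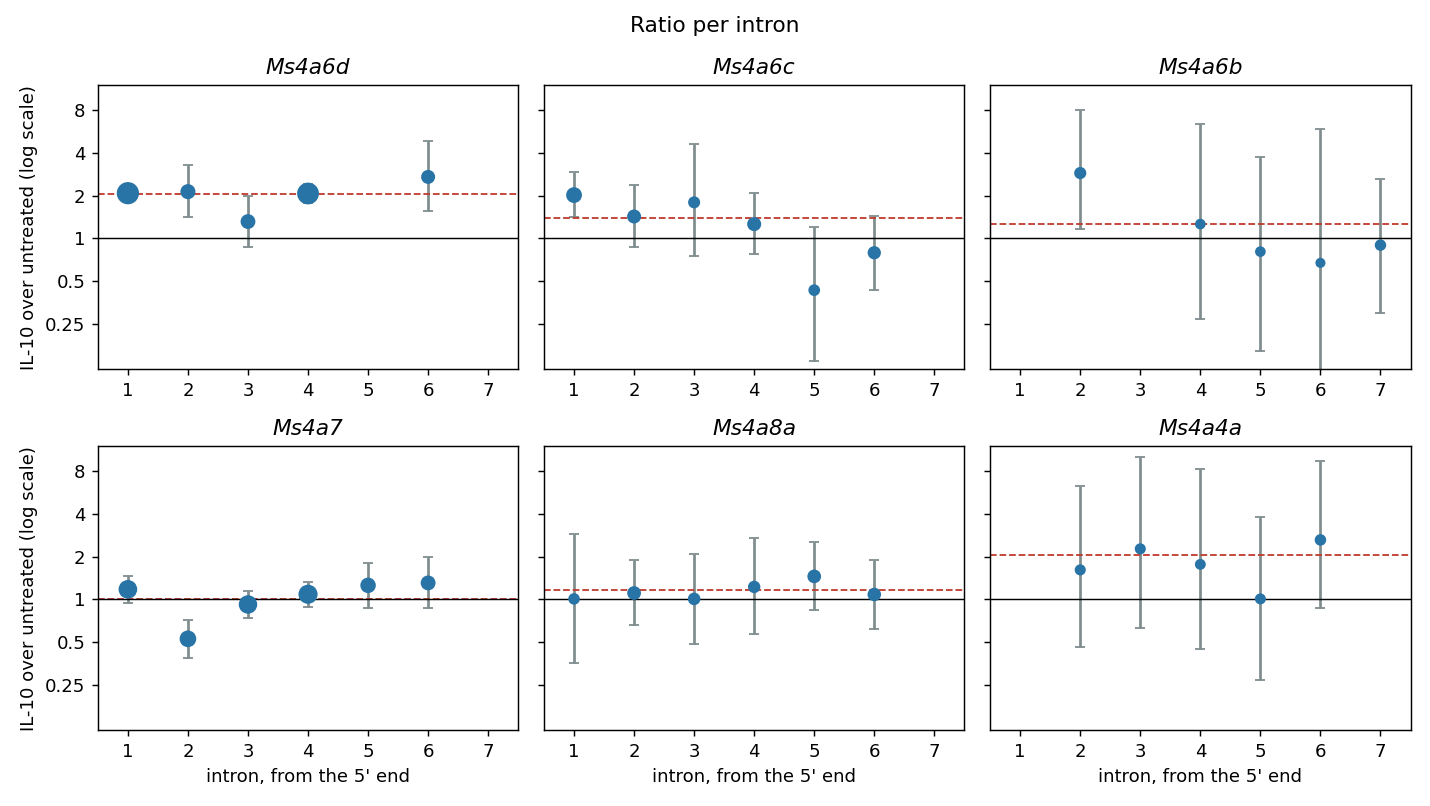
Ratio of scaled reads, IL-10 over untreated (log axis), for each intron in order from the 5′ end in 6 Ms4a genes, with 95% counting intervals (1 bar in Ms4a6b runs off the axis), point area growing with reads, and the gene's ratio as a dashed line. Introns with 0 reads in either library are not drawn, and Ms4a6d points lie between 1.31 and 2.70, while Ms4a6c points run from 2.01 at intron 1 to 0.432 at intron 5.

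Ms4a7 held 1 intron that went against the others. The gene, on the minus strand over mm9 chr19:11396073-11410496, had 188 reads with IL-10 and 161 without on intron 1 (1.18), but 66 and 126 on intron 2 (0.528, 0.386 to 0.716). Introns 3 to 6 had 159 and 174 (0.921), 207 and 192 (1.09), 71 and 57 (1.255), and 57 and 44 (1.31). Set against the rest of the gene, intron 2 was at 0.484 (0.353 to 0.664). Of 22 introns with at least 20 reads in the 4 Ms4a genes that had at least 3 such introns, 2 were at least 2-fold apart from the rest of their gene, this one and intron 5 of Ms4a6c (0.305, 0.118 to 0.787). Over all genes 3.96% of 39790 introns were, and 25.4% of 4876 genes held at least 1. With at least 100 reads on an intron, a class that Ms4a7 intron 2 belongs to, 0.571% of 9109 introns were. The join at this intron has 29 of 80 bases in common with the closest other gene, Sphkap. Without intron 2 the gene's ratio was 1.105 (0.990 to 1.23), a setting chosen after its values were seen.

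No difference in splicing within the genes was otherwise called between the libraries. At 11 splice sites with more than 1 junction and at least 20 reads in each library, 23 shares of a junction in its site's reads were compared. Of these 0 differed by 20 points or more. Junctions measured at both their donor and their acceptor enter once for each. At every such site 1 junction held at least 94.08% of the reads in both libraries, so the 0 calls say little about splicing. The largest difference was at the Ms4a7 junction that skips an exon of 57 bases, mm9 chr19:11399119-11402414. It had 10 of 169 reads at its donor with IL-10 and 4 of 178 without, which is 5.92% and 2.25%.

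Ms4a8a and Ms4a4a showed no such contrast among their introns, as far as their reads allow. Ms4a8a, on the minus strand over mm9 chr19:11142268-11155473, had ratios between 1.01 and 1.45 at 6 introns with 18 to 63 reads each. Ms4a4a, on the plus strand over mm9 chr19:11450122-11467160, had 6 reads with IL-10 and 0 without on intron 1, with a lower 95% limit of 1.19 for the ratio. Its introns 2 to 6 had 8 and 5, 9 and 4, 7 and 4, 6 and 6, and 13 and 5 reads. All 6 introns of Ms4a4a had as many or more reads with IL-10, and each interval but that of intron 1 included 1. Ms4a4c had between 1 and 4 reads on each of 5 introns and none on intron 3.

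Junctions that linked neighbouring Ms4a genes were rare. In all 3 joined annotated splice sites of 2 Ms4a genes, with 3 reads with IL-10 and 1 without. One ran from the donor of Ms4a6c intron 1 to the acceptor of Ms4a6b intron 2 (mm9 chr19:11544047-11594812, 2 and 0 reads), and another from the donor of Ms4a6c intron 3 to the acceptor of Ms4a6b intron 4 (mm9 chr19:11547018-11598399, 1 and 0 reads). The third ran from Ms4a4c to Ms4a4b (mm9 chr19:11493609-11535746, 0 and 1 reads). For the second and the third, whose joins lie in coding sequence, the windows of 25 bases on each side are shown because they give what a read would have to tell apart, with capitals where the 2 genes differ.
Ms4a6c intron 3: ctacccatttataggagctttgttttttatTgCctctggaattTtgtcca
Ms4a6b intron 4: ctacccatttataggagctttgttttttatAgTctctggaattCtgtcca
Ms4a4c intron 5: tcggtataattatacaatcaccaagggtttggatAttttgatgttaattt
Ms4a4b intron 5: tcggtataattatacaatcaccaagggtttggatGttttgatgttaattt
Before the join the 2 genes of each pair shown were the same over 25 bases. After it they differed at 3 positions in the Ms4a6 pair and at 1 in the Ms4a4 pair. Within this window a read across either link is the same as a read within the acceptor's gene, Ms4a6b or Ms4a4b. It differs at those positions only from a read within the donor's gene, Ms4a6c or Ms4a4c. Transcripts that span 2 genes were not told apart here from reads placed in the wrong copy.

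Another 3 junctions, with both ends at annotated splice sites, tied an Ms4a gene to a neighbour outside the list. Ms4a6c was joined to Gm8369, a gene between it and Ms4a6b, by mm9 chr19:11554890-11576648 (2 reads with IL-10, 1 without) and by mm9 chr19:11554890-11567584 (1 and 0). Gm8369 does not have an Ms4a name and is not counted in the links above. It was the closest other gene at the joins of Ms4a4c introns 3 and 4, with 75 and 73 of 80 bases identical. Ms4a8a was joined to AW112010 by mm9 chr19:11122883-11145200 (0 and 1). A further junction, from within Ms4a8a to AW112010, had 1 annotated end (mm9 chr19:11122883-11142078, 1 and 0). Set against the reads on introns of the listed genes, the 6 links with annotated ends came to 0.242% with IL-10 and 0.174% without, and over all genes 387 linking junctions held 0.273% of junction reads with IL-10 and 0.239% without. A total of 21 junctions outside the annotation touched a listed gene, with 21 reads with IL-10 and 14 without. At mm9 chr19:11549825-11552661 (3 and 2 reads), 1 of them has the length of Ms4a6c intron 4 with both ends moved by the same 4 bases.

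**Figure D4:**
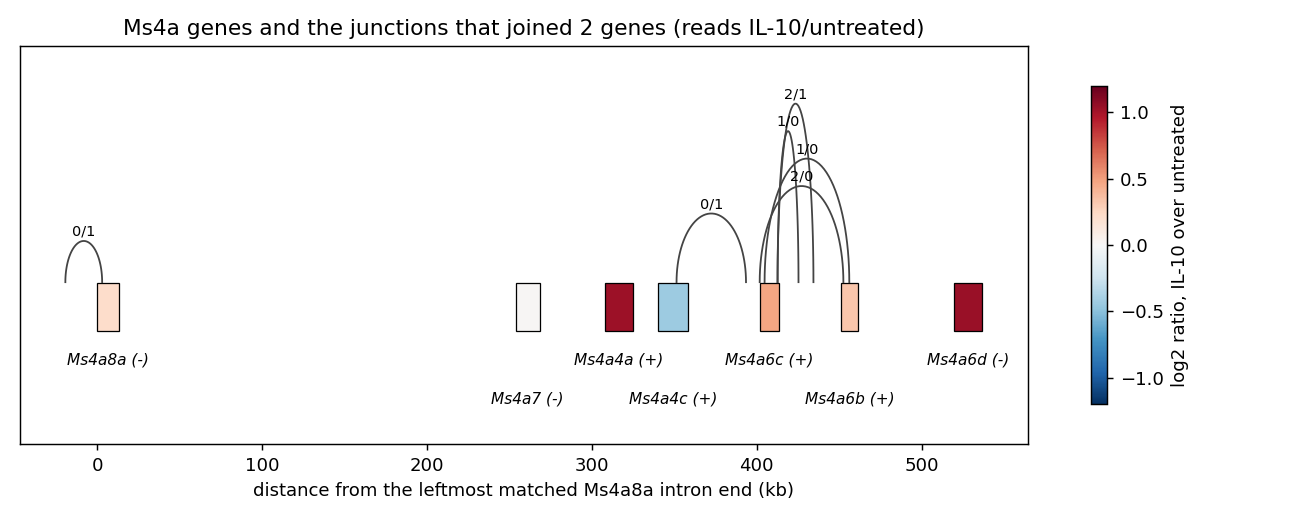
Map of the cluster in kb from the leftmost intron end of Ms4a8a, with each gene's span of matched introns coloured by log2 ratio, its strand in brackets, and arcs for the 6 junctions that joined annotated splice sites of 2 genes, labelled with reads IL-10/untreated (arc height has no meaning). The arcs gather at Ms4a6c, and none reaches Ms4a6d, Ms4a7 or Ms4a4a.

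Reads were also set beside the likeness of each join to other genes, as a description. Ms4a6d intron 1 had the most reads of any intron, 839 over both libraries, with 76 of 80 bases around its join found in Ms4a6b, and Ms4a6b intron 2 with the same likeness had 27. All 6 joins of Ms4a4c shared 73 to 78 bases with another gene, against 20 to 64 in Ms4a4a and 22 to 53 in Ms4a7. The joins of Ms4a8a shared 19 to 47. Ms4a6c intron 6 shared 26, fewer than any other Ms4a6 join with reads.

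**Figure D5:**
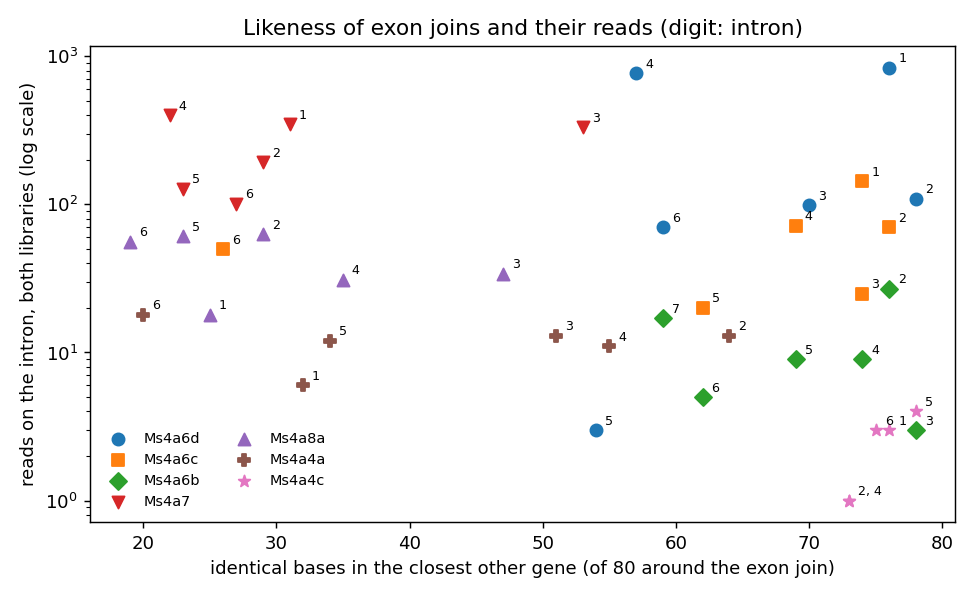
Reads on each intron over both libraries (log axis) against the number of bases, of 80 around the exon join, that are identical in the closest other gene, with the intron's number beside each point. Ms4a4c lies at the lower right with 1 to 4 reads at 73 bases or more, Ms4a6d intron 1 at the upper right with 839, and Ms4a7 and Ms4a8a to the left.

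Start regions were compared where the sequence table allowed, since the first introns with reads of Ms4a6b and Ms4a6c both had intervals above 1. RefSeq's table on GRCm38.p6 held 7 start regions for 6 of the 7 genes, each from 250 bases before to 50 after the start. Ms4a6d was not matched. Those of Ms4a6c and Ms4a6b aligned over 222 columns with 82.0% of bases the same, and no other pair aligned over more than 31. The first 120 columns, 93 of them identical, are shown because they lie before the start in both genes, with capitals where the 2 genes differ or have a base with no partner. On GRCm38.p6, plus strand, they are chr19:11469193-11469308 for Ms4a6c and chr19:11518311-11518428 for Ms4a6b.
Ms4a6c promoter: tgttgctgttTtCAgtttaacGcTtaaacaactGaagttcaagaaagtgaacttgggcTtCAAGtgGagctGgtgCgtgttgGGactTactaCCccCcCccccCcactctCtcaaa
Ms4a6b promoter: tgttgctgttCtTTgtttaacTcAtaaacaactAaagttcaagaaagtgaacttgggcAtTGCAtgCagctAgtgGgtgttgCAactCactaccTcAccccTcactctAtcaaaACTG
The STAT motif TTCNNNGAA, which reads the same on both strands, had 0 matches in the 7 start regions and at least 1 in 8.30% of 32851 regions of the same length. With a spacing of 1 base more, TTCNNNNGAA had 1 match in Ms4a6b and 1 in Ms4a7, against 6.95% of all regions. GAGGAA, the core that PU.1 of the ETS family binds, searched on both strands, was found once in Ms4a4c and once in Ms4a7, against 28.3% of all regions. The interferon-response core GAAANNGAAA, present in 3.44% of all regions, was in none of the 7. A match is only a run of letters, and these windows say nothing of sites further away.

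Relatives outside the list were almost unread. Ms4a1 had 3 reads with IL-10 and 1 without, Ms4a14 2 and 0, and Ms4a4b, which T cells are known to express, 0 and 4. No read was matched to Ms4a2, Ms4a3, Ms4a4d, Ms4a5, Ms4a10, Ms4a12, Ms4a13, Ms4a15 or Ms4a18, where a count of 0 allows up to 3 reads. Of the related genes Tmem176a and Tmem176b, which encode proteins of the same wider family, the first had 22 and 8 reads (2.77, 1.19 to 7.20) and was called higher, and the second 71 and 89 (0.804, 0.580 to 1.11). Among 12 measured genes that flank the cluster none was called, and their median log2 ratio was 0.17. Ccdc86 had the largest ratio there, 1.78 (1.32 to 2.43).

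A list of receptors and other genes that Ms4a proteins are known to partner or to be expressed with had 11 of 12 measured. None was called, 7 had an interval above 1 and 4 below, and their median log2 ratio was 0.11, beside -0.0013 over all measured genes. Clec7a, the Dectin-1 gene, was read 1101 times with IL-10 and 1975 times untreated (0.562, 0.521 to 0.605). The inhibitory Fc receptor gene Fcgr2b had 1293 and 838 (1.55, 1.42 to 1.70), and Fcgr4 185 and 119 (1.57, 1.24 to 1.99). Apoe, for apolipoprotein E, had 25710 and 36055 (0.718, 0.707 to 0.730). Tetraspanins, which also cross the membrane several times but form another family, had 0 of 14 called and 7 with an interval below 1 (median log2 ratio -0.10), among them Tspan17 (43 and 81 reads, 0.535) and Cd81 (47 and 83, 0.571).

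In a list of the IL-10 and Stat3 response, 8 of 14 measured genes were called higher and 0 lower, with a median log2 ratio of 1.17. Over all measured genes 1.74% were called higher and 1.49% lower. The list was drawn up with earlier results of these data known, so its count is a description only. Socs3, Nfil3 and Zfp36 had no matched read, and a match takes reads on at least 2 introns. Tgfbi had a ratio of 4.93 (4.65 to 5.24), Trib1 4.03 on 20 and 5 reads (1.47 to 13.7), Arg1 3.48 (2.70 to 4.52) and Il4ra 2.77 (2.39 to 3.21). All of these ratios were above that of Ms4a6d, 2.05, but the wide interval of Trib1 includes it. In the list of alternative activation 2 of 11 were called higher, Arg1 and Il4ra, which the response list also holds. Among 300 genes whose total reads were within a factor of 5/4 of those of Ms4a6d, the 3 with the nearest log2 ratio, over the 2 libraries, were Stat3 (2.22, 2.03 to 2.44), Rps14 (1.85, 1.68 to 2.04) and Map4k4 (1.62, 1.46 to 1.80).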

How the data were processed

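Per the labels, RNA of macrophages treated with IL-10 and of untreated macrophages was sequenced, 1 library each. The text on treatment is the same for both samples, so groups follow their titles. Per the submitters' processing notes, reads were processed with TopHat and Cufflinks on mm9. Each deposited file is, per the file headers, a list of TopHat junctions with a count of reads for each; versions and the handling of multiply placed reads are not given in the sources used here.

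Junctions were named from GENCODE M21 (GRCm38) by chromosome, strand and exact intron length, with at least 2 introns of a gene at 1 offset of up to 20 Mb. For 9 Ms4a genes the introns shared the offset of 74490 bases, and 0 of the 43 junctions of the listed genes belonged to another gene. Reads were summed per gene and scaled by the 3839810 (IL-10) and 3868556 (untreated) reads on introns of 1 gene. Log2 ratios used a pseudocount of 0.5 reads. A call needed 20 reads over both libraries, 2-fold and a 95% interval without 1. Intervals cover counting error only and take reads as independent. PCR copies and reads that cross 2 joins are not independent, so the intervals can be too narrow. edgeR 4.0.16 and DESeq2 1.42.0 gave other scalings. Coding sequences and promoters were aligned with Biopython 1.88, and windows of 80 bases around exon joins were searched with BLAST+ 2.17.0. The members and lists were chosen with earlier results of these data known. Up to 4 measured genes of a list with the largest absolute log2 ratio were named; other genes without a matched read were named for their absence. Some listed marker genes are not reported here.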

Additional observations from a re-analysis of the deposited data

How the results depend on the processing

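No paired analysis was possible because each group is 1 library. Other scalings (total of all junction reads, TMM, DESeq2 size factors, named reads without the listed genes) shifted every log2 ratio by at most 0.011 and left the calls of Ms4a6d and Ms4a4a as they were, as did introns shared with other genes, all junctions within the gene span, an overhang of 10 bases and a 99% interval. A fold of 3 left 0 Ms4a genes called higher, and a minimum of 100 reads left 1, Ms4a6d. With the most read intron alone, 3 were called: Ms4a6b at 2.88, Ms4a6c at 2.01 and Ms4a6d, while Ms4a4a at 2.62 lost its call, and the summed ratio was 1.69. With a pseudocount of 5 Ms4a4a fell under 2-fold, at 1.88. Settings added after the data were seen gave a summed ratio of 1.11 without Ms4a6d, 1.91 for Ms4a6d without its 2 most read introns, 1.105 for Ms4a7 without intron 2, and 1.12 for Ms4a6c and 0.798 for Ms4a6b without the first intron with reads. Over all genes, 146 were called higher and 125 lower, against 358 and 335 with a fold of 1.5, 53 and 29 with a fold of 3, and 37 and 10 with a minimum of 100 reads; lower calls numbered 77 with a 99% interval and 190 with no minimum of reads. Shares of junctions gave 0 calls and links between paralogs 3 in each alternative run. With 5 and 7 reads, Ms4a4c cannot show a difference at this depth, and with 1 library per group no spread between cultures or animals is known.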
